A study of Mus musculus with 19 samples.

Results

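The biliary lineage transcription factors examined here are Sox9, Sox4, Ehf, Elf3, Grhl2, Onecut1 and Onecut2, 7 genes listed by name, with no threshold on a measured value, though with earlier results of these data known. Their Ensembl identifiers were matched among the 35274 genes of the count tables, 16387 of which passed a filter on low counts, and all 7 passed it. RNA was sequenced from mouse hepatocytes, the main parenchymal cells of the liver, with 5 biological samples in each of 3 groups and 19 libraries from 15 samples in all. Every group had the genotype OPN-CreERT2;Rosa26R-mT/mG. In such mice a tamoxifen-inducible Cre recombinase is driven by the promoter of osteopontin (Spp1), a gene of bile duct cells, and Cre turns the red membrane fluorescence of a cell and its progeny green. CTL samples were native hepatocytes from control liver. RED samples were native tdTomato hepatocytes from liver with chronic injury. GREEN samples were DR-derived hepatocytes from liver with chronic injury, and the labels do not spell out DR. The sources used here do not name the injury or give its duration, nor the age and sex of the mice. GREEN 3 and GREEN 4 have the same code in the names of their libraries, and the labels do not say whether they came from 1 animal.

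Bile duct cells and hepatocytes arise from a common progenitor in the fetal liver, and the balance between the fates depends on transcription factors. SOX9 is the classic marker of the early duct plate and acts there together with SOX4, while the ONECUT factors are needed for duct formation but are also active in hepatocytes. GRHL2 controls epithelial junction genes of the duct lining, and EHF and ELF3 belong to the epithelium-specific ETS family. Injured liver can switch several of these genes on in cells around the ducts or in hepatocytes themselves.

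Sox4 and Elf3 were the members that passed the test between RED and CTL, and the stretches just upstream of their start sites are shown for that reason. Both come from the RefSeq promoter table on GRCm38.p6 and are printed in the direction of transcription. The Sox4 stretch is chr13:28953714-28953949 on the minus strand, 236 bases ending 14 bases before the RefSeq start. The Elf3 stretch is chr1:135258569-135258722 on the minus strand, 154 bases ending 96 bases before the RefSeq start. Capitals mark the ETS core GGAA on either strand.
Sox4: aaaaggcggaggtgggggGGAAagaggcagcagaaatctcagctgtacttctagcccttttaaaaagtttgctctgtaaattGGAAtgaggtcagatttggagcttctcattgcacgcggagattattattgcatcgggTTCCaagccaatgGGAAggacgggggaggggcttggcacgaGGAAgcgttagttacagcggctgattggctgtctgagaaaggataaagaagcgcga
Elf3: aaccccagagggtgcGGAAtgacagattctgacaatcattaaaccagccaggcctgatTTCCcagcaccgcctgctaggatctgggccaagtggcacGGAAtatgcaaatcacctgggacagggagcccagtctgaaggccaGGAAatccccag
The Sox4 stretch held 5 matches to the ETS core and the Elf3 stretch held 4. The core is short, and 92.3% of the 32851 RefSeq promoters held it in the stretch of the same length and position as that of Sox4, against 82.5% for that of Elf3. The Grainyhead-like motif AACCNGGTT, the SOX motif AACAAT and the ONECUT motif ATCAAT, searched on both strands, had 0 matches in either stretch. In the stretch placed like that of Sox4, 0.225%, 9.13% and 6.51% of all promoters held these motifs. Of the 7 genes, Sox4, Onecut1 and Elf3 had an entry in the table, and Sox9, Grhl2 and Ehf did not. The search did not cover Onecut2, so whether it had an entry is not known.

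Libraries of experiment 1 were made with a stranded poly(A) kit and held 22442607 to 34216824 estimated counts. Those of experiment 2 were made after removal of ribosomal RNA and held 38061859 to 44177627. Levels are given in CPM (counts per unit of library size, scaled with TMM factors) for 1 library per sample (CTL 3, CTL 4, RED 1, RED 5, GREEN 4 and GREEN 5 from experiment 1, the others from experiment 2). Differences are log2 fold changes fitted over all 15 samples with experiment as a term, tested with edgeR's quasi-likelihood test, adjusted over all genes tested and called at an adjusted p under 0.05. The labels call all samples hepatocytes, and the summed level of 16 hepatocyte markers such as Alb and Ttr was 128086 to 187583 CPM in CTL, 97706 to 139746 in RED and 38266 to 93810 in GREEN.

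Sox4, Ehf and Grhl2 were the genes that passed without overlap of samples in GREEN against both native populations. Sox4 and Elf3 did so in RED against CTL. The share of all genes tested that passed without overlap was not computed, so these lists have no background beside them. In RED versus CTL, 2 of the 7 rose (Sox4 and Elf3), where 14.2% of all genes tested were called higher and 1.99% lower (16.2% in all). That count was 1 without RED 4 and with limma-voom, and 4 with DESeq2. In GREEN versus RED, 3 of the 7 rose (Sox4, Grhl2 and Ehf), where 9.68% of all genes were called higher and 3.22% lower (12.9% in all). Grhl2 did not pass there when RED and GREEN alone were fitted with a block by library code number. In GREEN versus CTL, 5 of the 7 rose (Sox9, Sox4, Grhl2, Ehf and Elf3), where 29.5% of all genes were called higher and 18.6% lower (48.1% in all). Applied to 7 genes, the shares called higher amount to 0.994, 0.677 and 2.07 genes, so the count of 2 in RED versus CTL is 1 gene above its background. Onecut1 and Onecut2 did not pass in any of the 3 comparisons with edgeR, DESeq2 or limma-voom, and 1 of these 6 tests, Onecut2 in RED versus CTL, had an unadjusted p under 0.05 (edgeR). The median log2 fold change of the 7 was 1.63, 1.72 and 4.09 in these comparisons, beside 0.05, -0.02 and 0.11 over all genes. Each pair of comparisons shares a group of samples, so the 3 sets of values are not independent. In bulk RNA, fewer cells that express a gene and less RNA of it per cell cannot be told apart.

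**Figure D1:**
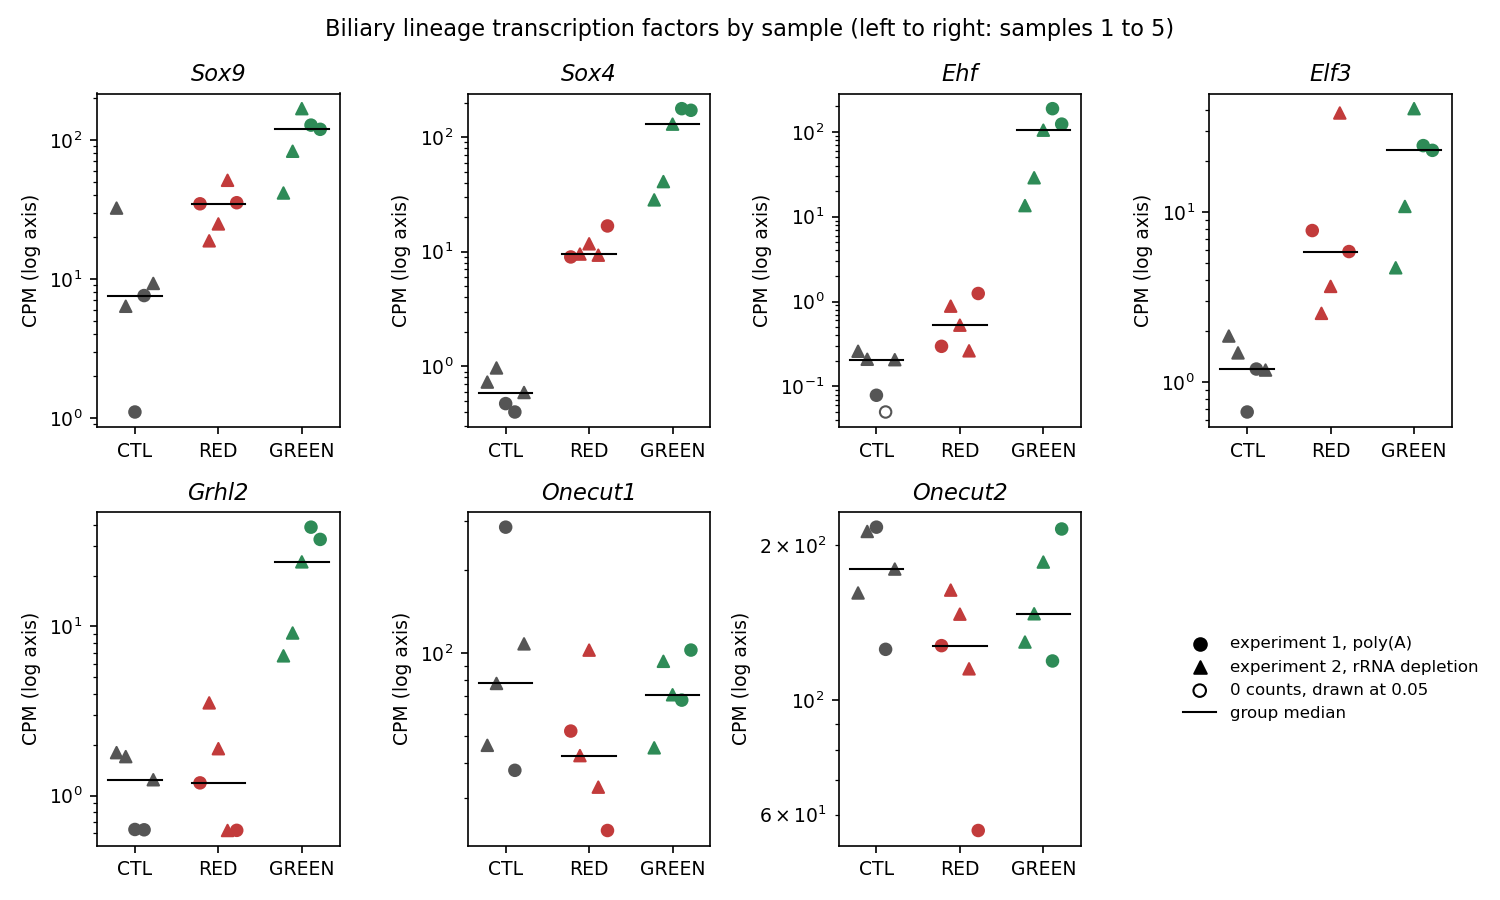
Level of each gene in every sample, in CPM on a log axis, with samples 1 to 5 of CTL (grey), RED (red) and GREEN (green) from left to right. Circles are libraries of experiment 1, triangles those of experiment 2, and bars are group medians; the open circle is the 0 of Ehf in CTL 4, drawn at 0.05. Sox4 forms 3 steps without overlap, Ehf and Grhl2 are high in GREEN alone of the 3 groups, and the Onecut genes overlap in all groups.

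Sox4 (ENSMUSG00000076431.4, GRCm38 chromosome 13, 28948919 to 28953713, minus strand, 1 annotated transcript) encodes an HMG-box factor that works with SOX9 in duct formation. It had 0.728, 0.967, 0.472, 0.399 and 0.590 CPM in CTL 1 to CTL 5. It had 9.00, 9.53, 11.7, 9.32 and 16.8 CPM in RED 1 to RED 5. It had 28.3, 40.9, 129.7, 177 and 171 CPM in GREEN 1 to GREEN 5. Every RED sample stood above every CTL sample, and every GREEN sample above every RED sample. The RED samples were close together, while GREEN 1 and GREEN 2 lay well below GREEN 3, GREEN 4 and GREEN 5. Sox4 rose 16.4-fold in RED over CTL (log2 4.04, standard error 0.49, adjusted p = 0.000364). It rose 9.09-fold in GREEN over RED (log2 3.18, standard error 0.44, adjusted p = 0.00062) and 149.2-fold in GREEN over CTL (log2 7.22, standard error 0.55, adjusted p = 3.95e-06). Within experiment 1 and experiment 2 the log2 fold changes were 4.72 and 3.73 for RED over CTL, 3.93 and 2.71 for GREEN over RED, and 8.65 and 6.44 for GREEN over CTL. The GREEN versus RED value of experiment 2 alone did not pass (adjusted p = 0.069, edgeR). The noncoding gene Gm26735 shares 2616 exonic bases with Sox4 on the other strand, and the sources used here do not say whether the counting used strand, so the Sox4 count is uncertain to that extent.

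Sox9 (ENSMUSG00000000567.5, chromosome 11, 112782224 to 112787760, plus strand) encodes the HMG-box factor most used to mark duct and progenitor cells. It had 32.3, 6.35, 1.10, 7.58 and 9.27 CPM in CTL 1 to CTL 5 and 34.7, 18.8, 24.8, 51.1 and 35.3 CPM in RED 1 to RED 5. It had 41.4, 82.8, 168, 128 and 119 CPM in GREEN 1 to GREEN 5. CTL 1 stood far above the other CTL samples and inside the RED range, and GREEN 1 lay inside the RED range too. The group means were 11.3 ± 12.1, 32.9 ± 12.3 and 107.7 ± 47.7 CPM (SD, n = 5 each), in the order CTL, RED, GREEN, and neither neighbouring pair passed the test. Sox9 had a log2 fold change of 1.63 in RED over CTL (95% interval 0.27 to 3.00, adjusted p = 0.108, edgeR) and 1.72 in GREEN over RED (0.39 to 3.05, adjusted p = 0.0779). From CTL to GREEN, whose samples did not overlap, it rose 10.2-fold (log2 3.35, standard error 0.68, adjusted p = 0.0013). Experiment 1 alone gave 2.68, 2.30 and 4.98 for the 3 comparisons, all past the threshold. Experiment 2 alone gave 0.98, 1.62 and 2.61, of which GREEN over CTL passed (adjusted p = 0.0394, edgeR). Without CTL 1, RED over CTL was 2.38 and passed (adjusted p = 0.0111), and GREEN over RED passed as well (adjusted p = 0.0487), as it did without CTL 3 (0.0447) or without GREEN 1 (0.0393, edgeR). DESeq2 called Sox9 in RED over CTL (adjusted p = 0.0407) and in GREEN over RED (1.69, adjusted p = 0.0278), and limma-voom in GREEN over RED (1.67, adjusted p = 0.0491). A fit of RED and GREEN alone with a block by library code number called Sox9 in GREEN over RED as well (adjusted p = 0.00283, edgeR).

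Ehf and Elf3 encode ETS factors of simple epithelia, and they parted in these samples. Ehf (ENSMUSG00000012350.15, chromosome 2, 103263433 to 103303278, minus strand) was near the limit of detection in native hepatocytes. It had 0.260, 0.209, 0.0787, 0 and 0.207 CPM in CTL 1 to CTL 5, from 27 counts in all. In RED 1 to RED 5 it had 0.297, 0.883, 0.527, 0.263 and 1.24 CPM, from 106 counts. In GREEN 1 to GREEN 5 it had 13.5, 28.7, 104.5, 187 and 123 CPM, from 22574 counts. The lowest GREEN sample was thus above 10 CPM while the highest RED sample was near 1 CPM. Ehf rose 126.4-fold in GREEN over RED (log2 6.98, standard error 0.73, adjusted p = 0.000106, edgeR), the largest of the 7 fitted changes in that comparison. It rose 437.6-fold in GREEN over CTL (log2 8.77, standard error 0.82, adjusted p = 1.03e-05). Its RED and CTL samples did not overlap, but RED over CTL did not pass (log2 1.79, 95% interval 0.10 to 3.49, adjusted p = 0.162). That comparison passed with DESeq2 (1.87, adjusted p = 0.0439) and in experiment 1 alone (3.36, adjusted p = 0.0237), but not in experiment 2 alone (1.28, adjusted p = 0.471, edgeR). For GREEN over RED, experiment 1 alone gave 7.84 and experiment 2 alone 6.46, and both passed.

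Elf3 (ENSMUSG00000003051.13, chromosome 1, 135253575 to 135258568, minus strand) differed from Ehf in being high in native hepatocytes of injured liver as well. It had 1.87, 1.49, 0.669, 1.20 and 1.18 CPM in CTL 1 to CTL 5. It had 7.81, 2.54, 3.66, 38.3 and 5.87 CPM in RED 1 to RED 5 and 4.71, 10.8, 40.7, 24.7 and 23.1 CPM in GREEN 1 to GREEN 5. RED 4 was far above the other RED samples and next to the highest GREEN sample, so RED and GREEN overlapped, while every RED and every GREEN sample stood above CTL. Elf3 rose 8.89-fold in RED over CTL (log2 3.15, standard error 0.76, adjusted p = 0.00977, edgeR) and 17.0-fold in GREEN over CTL (log2 4.09, standard error 0.79, adjusted p = 0.000998). GREEN over RED had a log2 fold change of 0.94 with a 95% interval of -0.56 to 2.44 (adjusted p = 0.387). Both calls turned on RED 4: without it RED over CTL was 1.77 (adjusted p = 0.051) and GREEN over RED was 2.04 (adjusted p = 0.0359, edgeR). RED over CTL also missed the threshold with limma-voom (2.52, adjusted p = 0.207) and in experiment 2 alone (3.30, adjusted p = 0.143), and passed in experiment 1 alone (3.89, adjusted p = 0.0399, edgeR). GREEN over CTL was 5.05 and 3.63 in experiments 1 and 2 alone, the latter not past the threshold (adjusted p = 0.0612, edgeR). The antisense gene Gm26642 shares 162 exonic bases with Elf3, which leaves its count uncertain to that extent.

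Grhl2 (ENSMUSG00000022286.16, chromosome 15, 37233036 to 37363569, plus strand) encodes a Grainyhead-like factor that turns on junction genes such as Cldn4 and Cdh1 in epithelia. It had 1.79, 1.70, 0.630, 0.627 and 1.24 CPM in CTL 1 to CTL 5 and 1.19, 3.53, 1.89, 0.621 and 0.622 CPM in RED 1 to RED 5. It had 6.70, 9.14, 24.1, 38.7 and 32.7 CPM in GREEN 1 to GREEN 5. CTL and RED covered about the same range, and all GREEN samples stood above it. Grhl2 rose 14.6-fold in GREEN over RED (log2 3.87, standard error 0.65, adjusted p = 0.0018, edgeR) and 19.0-fold in GREEN over CTL (log2 4.25, standard error 0.66, adjusted p = 0.000213). RED over CTL had 0.38 with a 95% interval of -0.88 to 1.64 (adjusted p = 0.749), and its sign turned without RED 2 (-0.19). Experiments 1 and 2 alone gave 5.42 and 2.73 for GREEN over RED, and the latter did not pass (adjusted p = 0.119, edgeR). They gave 5.97 and 3.08 for GREEN over CTL, and both passed. In a fit of RED and GREEN alone with a block by library code number, Grhl2 did not pass in GREEN over RED. The change in GREEN over RED was lower in experiment 2 by a log2 difference of -2.58, which did not pass (adjusted p = 0.564, edgeR interaction test). The antisense gene Gm16136 shares 169 exonic bases with Grhl2.

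Onecut1 and Onecut2 encode the factors also known as HNF6 and OC2, which act in duct formation and in hepatocytes. Onecut1 (ENSMUSG00000043013.10, chromosome 9, 74861921 to 74891781, plus strand) had 46.4, 77.6, 285, 37.7 and 107.9 CPM in CTL 1 to CTL 5. It had 52.2, 42.6, 102.4, 32.8 and 22.8 CPM in RED 1 to RED 5 and 45.4, 93.3, 70.6, 67.6 and 102.5 CPM in GREEN 1 to GREEN 5. CTL 3 stood far above all other samples, and the 3 groups overlapped. The log2 fold changes were -1.06 in RED over CTL (95% interval -2.20 to 0.09, adjusted p = 0.23, edgeR), 0.55 in GREEN over RED (-0.57 to 1.66, adjusted p = 0.507) and -0.51 in GREEN over CTL (-1.63 to 0.60, adjusted p = 0.442). GREEN over CTL turned to 0.15 without CTL 3. The noncoding gene Gm20649 shares 2171 exonic bases with Onecut1 on the same strand, so its count is uncertain.

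Onecut2 (ENSMUSG00000045991.18, chromosome 18, 64340020 to 64400987, plus strand) had 161.6, 212.7, 216.9, 125.6 and 179.8 CPM in CTL 1 to CTL 5. It had 127.7, 163.7, 147, 115.1 and 55.9 CPM in RED 1 to RED 5 and 129.7, 147.2, 185.5, 119.2 and 215.1 CPM in GREEN 1 to GREEN 5. RED 5 was the lowest of all samples for this gene, and the 3 groups overlapped. The log2 fold changes were -0.57 in RED over CTL (95% interval -1.13 to -0.02, adjusted p = 0.171, edgeR), 0.41 in GREEN over RED (-0.14 to 0.96, adjusted p = 0.296) and -0.16 in GREEN over CTL (-0.71 to 0.39, adjusted p = 0.629). The interval of GREEN over CTL excludes a change of the size that Sox9, Sox4, Ehf, Elf3 and Grhl2 had in the same comparison. In experiment 1 alone GREEN over CTL was 0.21.

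**Figure D2:**
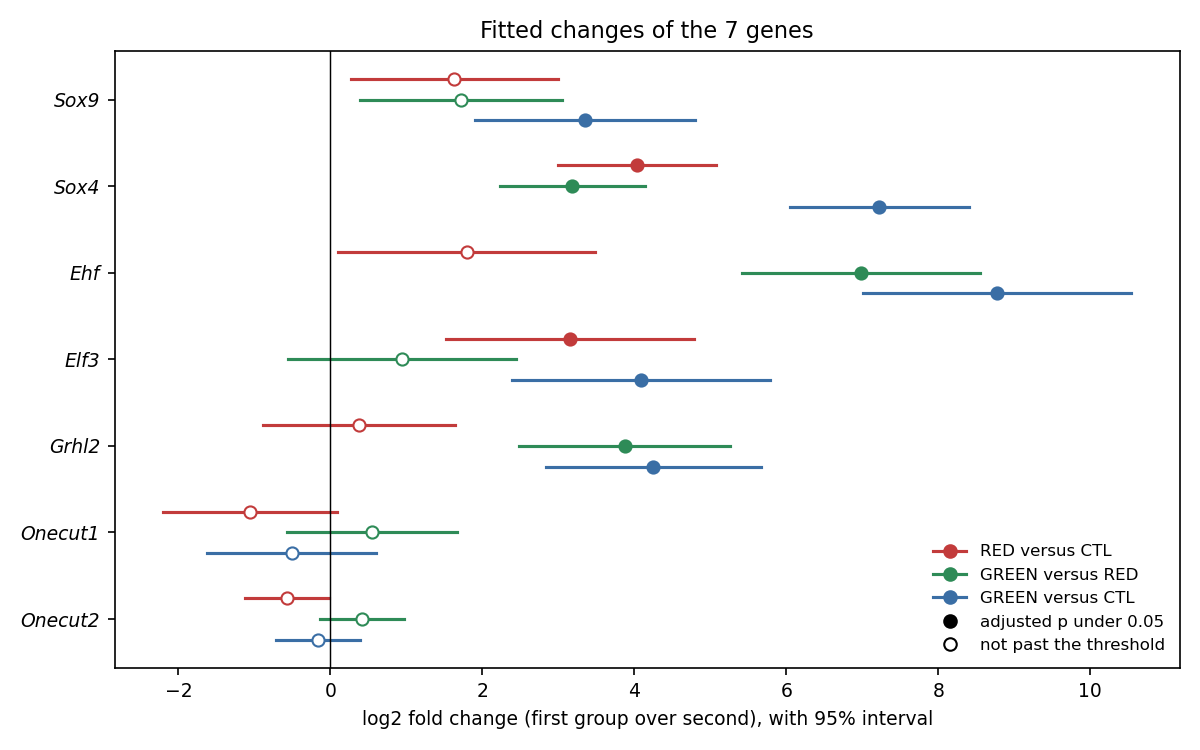
Fitted log2 fold change of each gene with its 95% interval for RED over CTL (red), GREEN over RED (green) and GREEN over CTL (blue). Filled points passed an adjusted p of 0.05 and open points did not. The intervals of Sox4 lie above 0 in all 3 comparisons with filled points, Ehf and Grhl2 have filled points in the comparisons that hold GREEN, and all points of Onecut1 and Onecut2 are open.

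Per kilobase of annotated exon, the order of the 7 genes differed between the groups. In CTL the mean level was 27.0 CPM per kb for Onecut1 and 11.045 for Onecut2, then 2.74 for Sox9, 0.578 for Elf3, 0.139 for Grhl2, 0.132 for Sox4 and 0.0271 for Ehf. In RED it was 12.3 for Onecut1, 7.97 for Sox9, 7.51 for Onecut2, 5.25 for Elf3, 2.35 for Sox4, 0.182 for Grhl2 and 0.115 for Ehf. Single samples weigh on 3 of these means: without CTL 3 the Onecut1 mean in CTL was 16.4 CPM per kb, without CTL 1 that of Sox9 was 1.47, and without RED 4 that of Elf3 in RED was 2.24, below the 2.45 of Sox4. The SDs of these 3 means over all 5 samples were 24.6, 2.93 and 6.79 CPM per kb. In GREEN the mean was 26.0 for Sox9, 22.8 for Sox4, 18.5 for Onecut1, 16.4 for Ehf, 9.82 for Onecut2, 9.38 for Elf3 and 2.58 CPM per kb for Grhl2. The native hepatocytes of control liver thus carried the Onecut transcripts above the other 5, also with CTL 3 or CTL 1 left out. In GREEN the means of Sox9 and Sox4 lay above both Onecut means, and that of Ehf lay between the Onecut means. Without GREEN 4 the means of Sox4 and Onecut1 were 19.3 and 19 CPM per kb. Without GREEN 2 those of Ehf and Onecut1 were 19.2 and 17.4. In GREEN 1 and GREEN 2 the CPM of Onecut1 (45.4 and 93.3) lay above those of Sox9 (41.4 and 82.8) and Sox4 (28.3 and 40.9). In the other GREEN samples it lay below both. The SDs of Sox9, Sox4 and Ehf in GREEN were 11.5, 14.8 and 12.8 CPM per kb (n = 5) and span most of the distances between the means.

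The GREEN samples were not alike, and the genes that rose in GREEN varied most among them. GREEN 1 to GREEN 3 are from experiment 2 and GREEN 4 and GREEN 5 from experiment 1, and the levels compared here are not corrected for experiment. The highest GREEN level was 13.9 times the lowest for Ehf, 8.63 times for Elf3, 6.25 for Sox4, 5.77 for Grhl2 and 4.04 for Sox9, against 2.26 for Onecut1 and 1.80 for Onecut2. Sox4, Ehf and Grhl2 had the samples in the same order, GREEN 4 highest, then GREEN 5, GREEN 3, GREEN 2 and GREEN 1. Bile duct markers had that order too. The summed level of 20 duct markers was 1020, 1224, 4498, 10607 and 5814 CPM in GREEN 1 to GREEN 5, against 290.1 to 630.3 in RED and 283.7 to 679.3 in CTL. That sum includes the Cre driver gene Spp1, which reached 7420 CPM in GREEN 4. Without Spp1 the sums were 607, 690, 2147, 3188 and 2192 CPM in GREEN 1 to GREEN 5, in the same order of samples. Hepatocyte markers went the other way, with 77465, 93810, 48762, 38266 and 43511 CPM in GREEN 1 to GREEN 5. The part of duct cell RNA in the rise of the transcription factors was not tested.

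**Figure D3:**
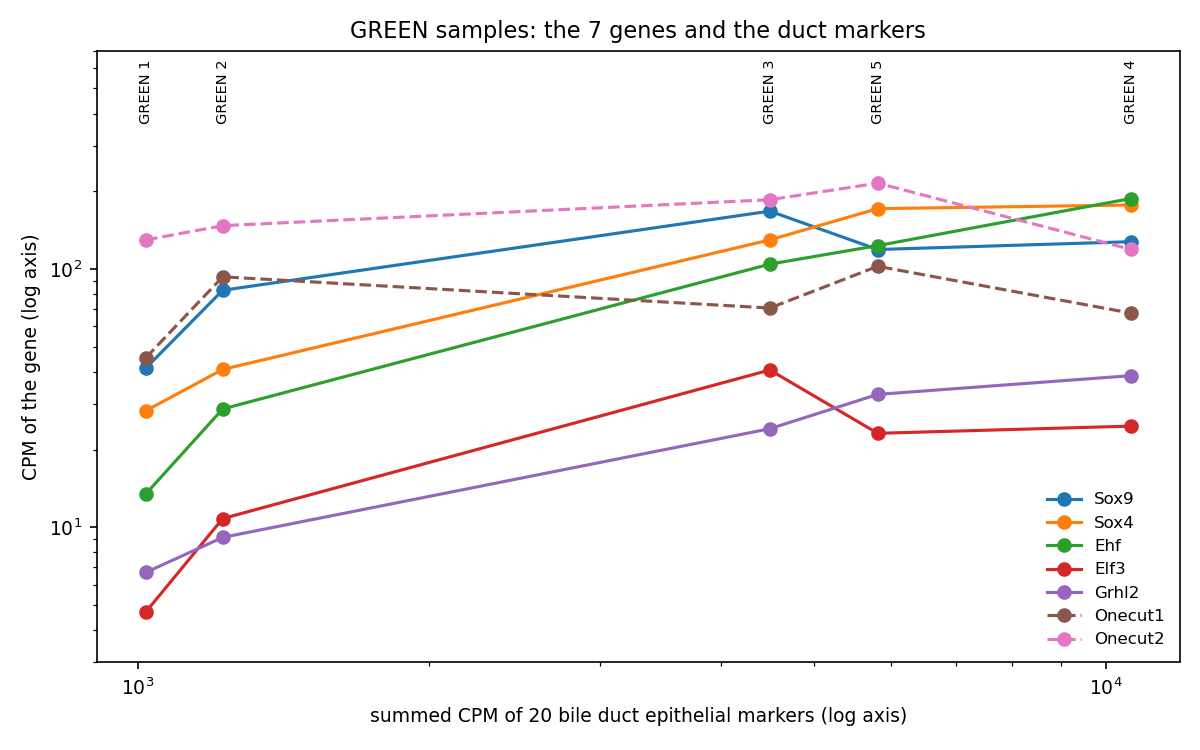
Level of each gene (vertical axis, CPM, log) against the summed level of 20 bile duct markers (horizontal axis, CPM, log) in the 5 GREEN samples, 1 line per gene. The sum includes the Cre driver gene Spp1. Sox4, Ehf and Grhl2 climb from GREEN 1 to GREEN 4 along the marker axis, Sox9 and Elf3 peak in GREEN 3, and the dashed Onecut lines stay within 2.26-fold.

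Set against the other duct markers of the same sample (19 markers, with the Cre driver gene Spp1 left out), Grhl2 varied least of the 7, with no correction for experiment. It amounted to 1.10%, 1.32%, 1.12%, 1.21% and 1.49% of their sum in GREEN 1 to GREEN 5. Sox4 amounted to 4.66%, 5.92%, 6.04%, 5.55% and 7.82%, and Ehf to 2.22%, 4.16%, 4.87%, 5.88% and 5.62%. Sox9 amounted to 6.83%, 12.0%, 7.80%, 4.00% and 5.43%, and Elf3 to 0.777%, 1.57%, 1.89%, 0.774% and 1.06%. The highest share was 1.35 times the lowest for Grhl2, 1.68 for Sox4, 2.45 for Elf3, 2.64 for Ehf and 2.99 for Sox9. In the samples with 2 libraries, none of them GREEN, Grhl2 read 2.24 to 2.95 times higher in experiment 2 than in experiment 1. The spreads of the shares and their ranking thus also hold a difference between experiments, whose part was not tested. Onecut2 was 21.4% and 21.3% in GREEN 1 and GREEN 2 but 8.64%, 3.74% and 9.81% in the other 3. With GREEN 3, GREEN 4 and GREEN 5 left out, a choice made after seeing the data, 1 of the 7 (Ehf, log2 4.94) passed in GREEN versus RED and 3 (Sox4, Grhl2 and Ehf) in GREEN versus CTL. In that fit Sox4 had 1.59 (adjusted p = 0.137, edgeR) and Grhl2 1.99 (adjusted p = 0.199) in GREEN over RED. Leaving out GREEN 3 or GREEN 4, which share a library code, changed no call of the 7 in GREEN versus RED or GREEN versus CTL.

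Of 19 other SOX, ONECUT, Grainyhead-like and ETS genes, 14 were tested. In RED versus CTL 5 of these rose, with a median log2 fold change of 0.53: Sox17 (4.33, adjusted p = 0.000571), Sox18 (3.59, adjusted p = 0.00135), Elf4 (3.18, adjusted p = 0.00444), Sox7 (2.49, adjusted p = 0.00628, edgeR) and Grhl1. Sox7, Sox17 and Sox18 are the SOX factors of endothelial cells. In GREEN versus CTL 7 of the 14 rose (median 0.64), led by Elf4 (4.93, adjusted p = 0.000151) and Sox17 (3.95, adjusted p = 0.000263, edgeR). In GREEN versus RED 0 of the 14 passed with edgeR (median 0.17), 0 with limma-voom, 1 with DESeq2 and 1 at an unadjusted p under 0.05. Elf4, an ETS gene of blood and endothelial cells, had 1.76 there (adjusted p = 0.0705, edgeR).

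Of 20 other regulators of duct and progenitor cells 17 were tested, and in GREEN versus RED 9 rose with a median log2 fold change of 1.19. Of all genes tested, 9.68% were called higher in that comparison. Esrp1, an epithelial splicing regulator, rose from 0.061 to 15.1 CPM (log2 7.95, standard error 0.84, adjusted p = 0.000114, edgeR). Klf5, a factor of proliferating epithelia, rose from 0.121 to 16.6 CPM (log2 6.94, adjusted p = 7.55e-05). Foxj1, the master gene of motile cilia, and Ovol2, which holds cells in an epithelial state, each had log2 5.63 (adjusted p = 0.000416 and 0.000661, edgeR). Esrp1, Klf5, Foxj1 and Ovol2 had mean levels of 0.237 CPM or less in CTL and in RED. Genes this low there met the filter on low counts through GREEN, so the 9 of 17 and their median partly reflect the filter. In RED versus CTL 6 of the 17 rose (median 0.79), among them Sox17 (4.33) and the Notch target genes Heyl (3.29) and Hey1 (2.56). Sox17 is the SOX gene of endothelial cells already counted in the family list above, so both lists count it. Foxj1 rose there too, from 1 count over the CTL libraries used (1 per sample) to 40 counts over those of RED. In GREEN versus CTL 13 rose and 1 fell (median 2.10).

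Of 16 transcription factors of hepatocyte identity, 9 fell in GREEN versus CTL (median log2 fold change -0.90). In RED versus CTL 0 of the 16 passed with edgeR, DESeq2 or limma-voom, and 0 had an unadjusted p under 0.05 (median -0.41). In GREEN versus RED 0 passed with edgeR, 4 with DESeq2, 3 with limma-voom and 7 at an unadjusted p under 0.05 (median -0.67). In GREEN versus CTL Nr1i3, the xenobiotic receptor CAR, had -1.85 (adjusted p = 0.0164) and Ppara, the regulator of fatty acid oxidation, -1.56 (adjusted p = 0.0203, edgeR). In the same comparison Cebpa had -1.19 and the liver transcription factor gene Creb3l3 -1.08, and GREEN samples held 150.8 CPM of Cebpa beside 311.9 in CTL.

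Markers of cells other than hepatocytes also differed between the groups. Of 20 bile duct markers, 4 rose in RED versus CTL (median log2 1.06) and 18 in GREEN versus RED (median 6.01), among them Cldn4 (7.92), Epcam (7.33) and Rab25 (7.28). In GREEN versus CTL 19 of the 20 rose (median 7.19), and Cftr was among the duct markers at 0 in every CTL library used. The 4 duct markers that rose in RED were Krt19, Cd24a (4.58), Tspan8 (3.92) and Bicc1 (2.96), and limma-voom called 1 and DESeq2 7. The duct keratin gene Krt19 had 1 count over the CTL libraries used (1 per sample), a mean of 0.488 CPM in RED and 54.9 CPM in GREEN. Of 16 hepatocyte markers, 1 fell in RED versus CTL (Serpina1c), 1 in GREEN versus RED (F9; 9 passed with DESeq2 and 7 with limma-voom) and 11 in GREEN versus CTL.

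Endothelial markers rose in 15 of 15 cases in RED versus CTL (median 3.84), stellate cell and matrix markers in 14 of 15 (median 3.85) and macrophage markers in 15 of 15 (median 3.25). Their summed levels were 58.9 to 169.9, 49.2 to 107.1 and 45.9 to 119.7 CPM in CTL, and 486.7 to 2425, 407.4 to 2474 and 141.3 to 1798 CPM in RED, so no RED sample overlapped CTL in any of the 3 sums. In GREEN the sums were 465.4 to 982.3, 1145 to 3657 and 178.8 to 714.0 CPM. No member of these 3 lists was at 0 in a whole group. In GREEN versus RED 4 matrix markers rose (Col1a1, Col1a2, Lum and Col3a1), 0 of 15 endothelial markers passed with edgeR, DESeq2 or limma-voom (1 at an unadjusted p under 0.05), and 4 macrophage markers fell (Marco, Vsig4, Timd4 and Cd5l). Of 10 lymphocyte, neutrophil and erythroid markers tested, 3 rose and 1 fell in RED versus CTL. Cd79a, Nkg7 and Ly6g were at 0 in every CTL library used (1 per sample). The part of these cells in the rise of Sox4 and Elf3 in RED was not tested.

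**Figure D4:**
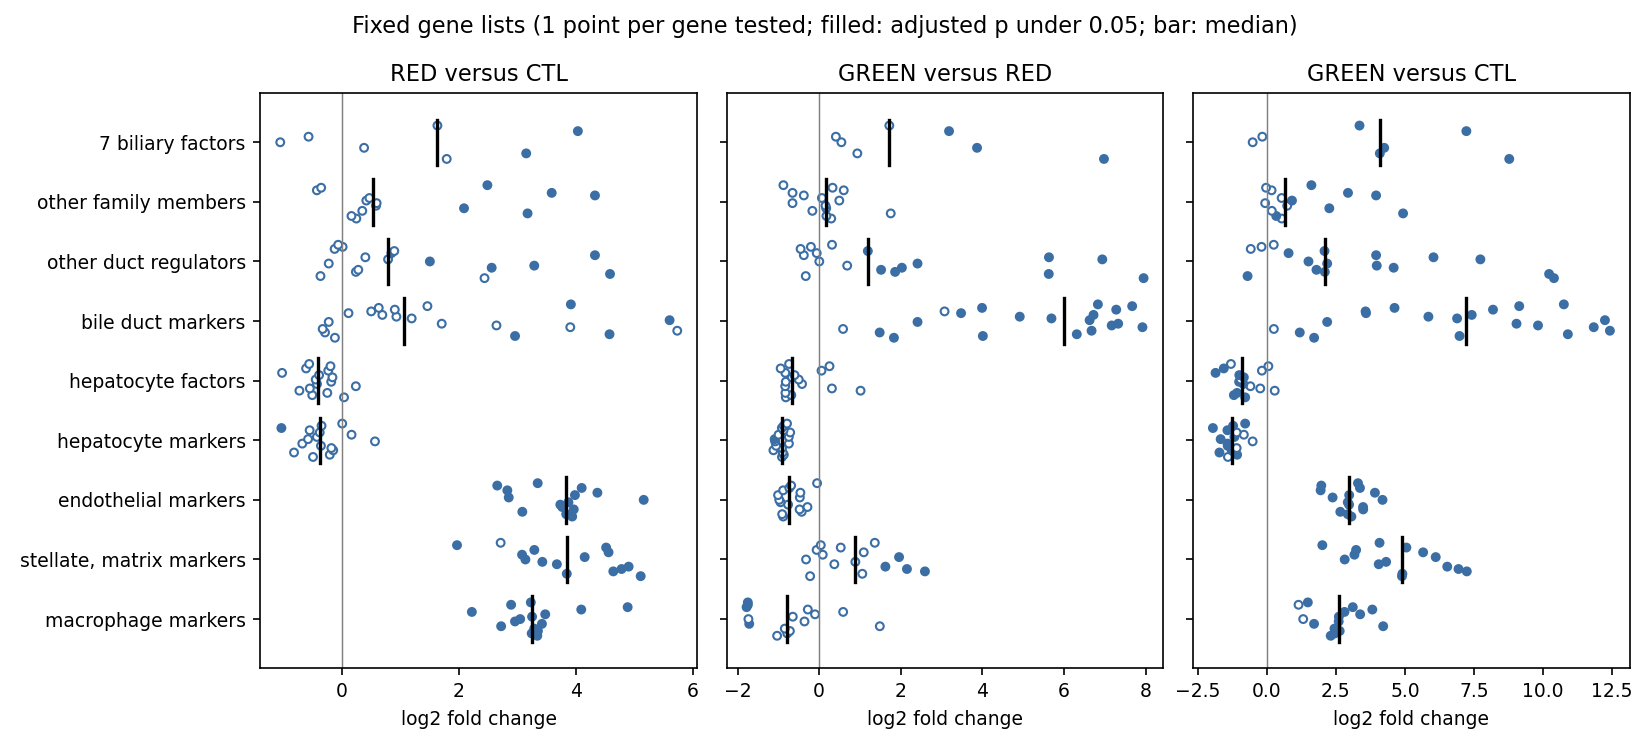
Log2 fold change of every tested gene of each list in the 3 comparisons, with filled points past an adjusted p of 0.05 and a bar at the list median. In GREEN versus RED the duct markers (median 6.01) and some of the 7 factors and other duct regulators extend to the right while the endothelial markers (median -0.73) do not; in RED versus CTL the endothelial, stellate and macrophage markers lie at 1.97 or above.

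For some of the 7 genes the measured level differed between the experiments in the same sample. CTL 5, RED 2, RED 3 and RED 4 each had a separate library in both experiments, which differed in kit and in depth, and the part of each was not tested. The level in the experiment 2 library over that in the experiment 1 library was 2.49, 2.95, 2.24 and 2.62 for Grhl2 and 2.62, 1.71, 2.13 and 1.70 for Sox9 in these samples. For Sox4 it was 1.32, 1.00, 1.08 and 1.00. Onecut1 had ratios of 1.10 to 1.38 and Onecut2 of 1.42 to 1.78. Elf3 had 2.97 in CTL 5 but 1.14 in RED 4, where both libraries were high, with 38.3 CPM in experiment 2 and 33.7 in experiment 1. Ehf had 0.574 to 2.08, on 2 to 34 counts per library. Group means that mix the experiments therefore carry this difference, for Sox9, Grhl2 and Onecut2 among others, while the fitted changes have experiment as a term. A test of whether a group difference differed between the experiments passed for 0 of the 7 with edgeR, with adjusted p of 0.324 or more, and 4 of these 21 tests had an unadjusted p under 0.05.

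**Figure D5:**
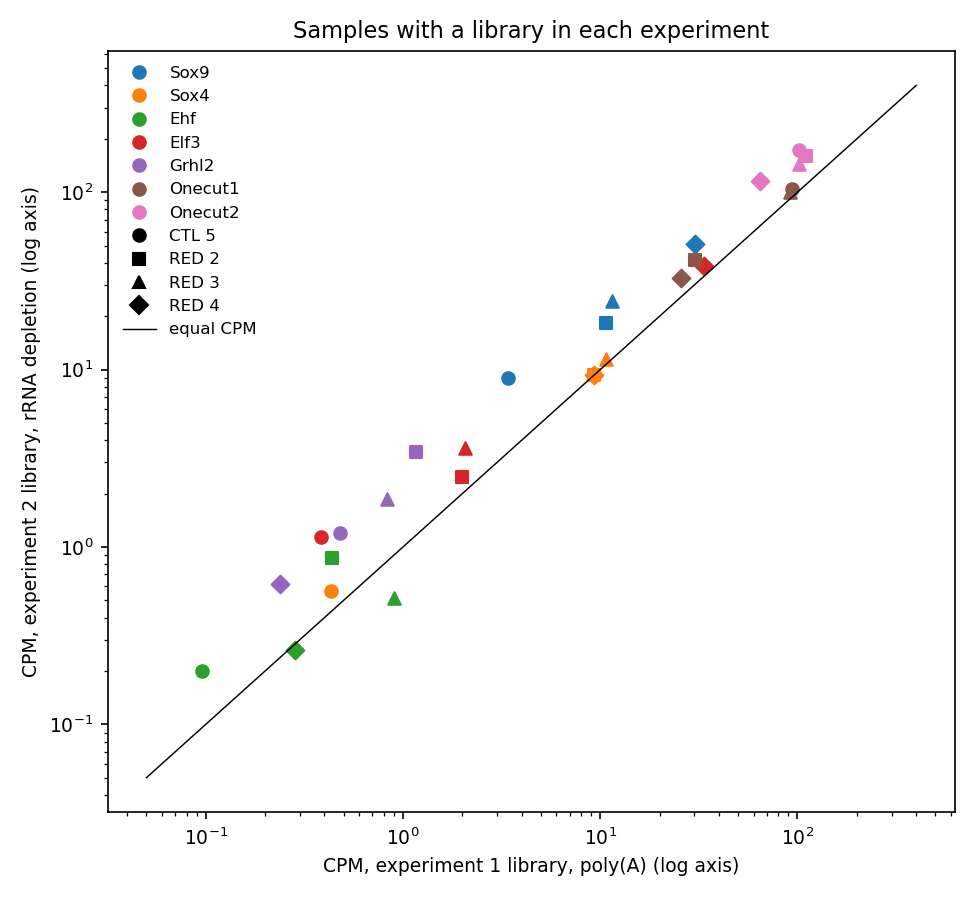
CPM of each gene in the experiment 2 library (vertical, log axis) against the experiment 1 library (horizontal, log axis) of the 4 samples that had both, with colours for genes and shapes for samples. Points of Sox4 lie close to the line of equal CPM, while those of Grhl2 and Sox9 lie above it by 1.70 to 2.95 times.

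Across the 15 samples, with the experiment effect removed from log2 CPM, the 7 genes fell into 2 sets. Grhl2 and Ehf had a Pearson correlation of 0.948, Sox4 and Ehf 0.915, Sox9 and Elf3 0.895 and Sox9 and Sox4 0.884. Onecut1 and Onecut2 had 0.781 with each other and -0.375 to 0.281 with the other 5. These values describe samples that share groups and kits, so group differences are part of them.

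Outside the 7, the genes with the most similar pattern over the 15 samples were found by the same measure, taking the highest 3 for each gene. For Sox4 these were Tcaf1 (0.997), Plagl1 (0.989) and Map1b (0.988). For Ehf they included Chrnb1 (0.990) and Rab27b (0.990), and for Grhl2 they were the epithelial protease gene St14 (0.989), Cbarp (0.987) and Veph1 (0.984). For Sox9 they were Arl2bp (0.957), Sgce (0.953) and Ppp1r3f (0.952), and for Elf3 the chemokine receptor gene Cxcr4 (0.959), Tnfrsf12a (0.958) and Cbl (0.954). Onecut1 was closest to the hepatocyte factor gene Foxa2 (0.892), Sin3b (0.891) and Intu (0.878), and Onecut2 to Ncoa1 (0.924), Intu (0.898) and Tial1 (0.898). Intu stood in both Onecut lists, and no gene was shared among the lists of the other 5. With a prior count of 0.5 in place of 2, all 3 genes were the same for Ehf, Grhl2, Onecut1 and Onecut2, 2 for Elf3 (Cxcr4 left the list), 1 for Sox4 (Tcaf1) and 1 for Sox9 (Arl2bp).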

How the data were processed

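RNA of 15 hepatocyte samples (5 CTL, 5 RED, 5 GREEN) was measured in 19 libraries, made, per the labels' protocols, from 150 ng of RNA each with TruSeq Stranded mRNA in experiment 1 and KAPA HyperPrep RiboErase in experiment 2. The authors deposited estimated counts per gene, made with kallisto 0.43.1 and the build GRCm38 per the submitters' processing notes; the sources used here give neither the annotation release nor how transcripts were summed. Of 133 values of the 7 genes, 97 were not whole within 0.001. Kallisto splits shared reads by estimation, so overlapping genes and paralogs are uncertain. None of the genes counted was matched to Gm26735, Gm26642, Gm16136 or Gm20649, so whether reads were split with these is not known.

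Counts were rounded, and 1 library per sample was used, that of experiment 2 for the 4 samples with 2. Of 35274 identifiers 34845 (98.8%) matched a GENCODE annotation of GRCm38, which gave symbols, positions and exonic lengths. After filterByExpr, 16387 genes were scaled by TMM and tested with edgeR 4.0.16 (R 4.3.3, quasi-likelihood, group and experiment as terms, 11 residual degrees of freedom, Benjamini-Hochberg over all genes). Standard errors are the absolute log2 fold change over the root of F, and CPM errors are SDs over 5 samples. Likeness used log2 CPM with a prior count of 2. The labels call the samples biological replicates but name no animals, so p-values measure the spread between these samples. The 7 genes and the lists were chosen with earlier results of these data known. Of each list at most 4 genes past the threshold with the largest absolute change were to be named; Grhl1 was named beyond these to complete a count of 5. Alternatives were library totals, DESeq2 1.42.0, limma-voom (limma 3.58.1), no filter, the other library of repeated samples, each experiment alone, no experiment term, replicate blocks and each sample left out. A few genes that these rules select are not reported here. The code was tested on simulated data.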

Additional observations from a re-analysis of the deposited data

Results flagged for a closer look

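Of 21 sets of 5 samples (7 genes in 3 groups), 3 had an extreme sample by Dixon's ratio, with a critical value of 0.71. For normally distributed values chance gives about 1 in 20. The ratio was taken on CPM without a log and over samples of both experiments, so that rate may not hold here. Sox9 was 32.3 CPM in CTL 1, and the gap to the next CTL sample was 0.738 of the range. Onecut1 was 285 CPM in CTL 3, with a ratio of 0.716. Elf3 was 38.3 CPM in RED 4, with a ratio of 0.853. The separate experiment 1 library of RED 4 also had the highest Elf3 level of the RED samples with 2 libraries, 33.7 CPM beside 2.00 in RED 2 and 2.06 in RED 3.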

How the results depend on the processing

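Of the values of single genes under the alternatives, 505 kept direction and side of the threshold, 16 newly passed, 11 no longer passed and 7 turned sign. In RED versus CTL the count of the 7 genes past the threshold, 2, became 4 with DESeq2 and in experiment 1 alone (Sox9 and Ehf added), and 1 (Sox4) with limma-voom and in experiment 2 alone; leaving out 1 sample gave 1 to 3, the 1 without RED 4. In GREEN versus RED the count of 3 became 5 by library totals (Sox9 and Onecut2 added) and 1 (Ehf) in experiment 2 alone and without GREEN 3, GREEN 4 and GREEN 5; leaving out 1 sample gave 3 to 4. In GREEN versus CTL the count of 5 became 3 without these 3 samples and was 5 in every fit that left out 1 sample. By library totals the median of all genes was 0.33, 0.42 and 0.83 in the 3 comparisons; Onecut1 and Onecut2 in GREEN versus CTL turned to 0.19 and 0.57, which relative to that median are -0.64 and -0.26, beside -0.63 and -0.28 with TMM. The other signs that turned were Onecut1 without CTL 3 (0.15; -0.83 to 0.15 over all fits with 1 sample left out) and Onecut2 in experiment 1 alone (0.21), both in GREEN versus CTL, Elf3 in GREEN versus RED without GREEN 3, GREEN 4 and GREEN 5 (-0.88), and Grhl2 in RED versus CTL with the experiment 1 library of repeated samples (-0.43) and without RED 2 (-0.19; -0.19 to 0.57 with 1 sample left out); none of these 7 passed. Apart from the samples left out, the causes were not tested. Sox4 passed in RED versus CTL under 25 of 25 alternatives, and Ehf in GREEN versus RED under 27 of 27.

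Of all genes, GREEN versus RED called 2114 (1586 higher, 528 lower), 4329 by library totals (4289 higher, 40 lower), 3822 with DESeq2, 5351 and 77 in experiments 1 and 2 alone, 4141 with the experiment 1 library of repeated samples, 866 to 3515 with 1 sample left out and 52 without GREEN 3, GREEN 4 and GREEN 5. GREEN versus CTL called 7890 (4839 higher, 3051 lower), 10544 by library totals (10077 higher, 467 lower), 3481 in experiment 2 alone and 2176 without those 3 samples. RED versus CTL called 2652 and 1207 in experiment 2 alone. Deviations from group means of samples with the same title number correlated at -0.223 to 0.578. Those of RED and GREEN samples with the same library code number correlated at 0.577, 0.398, 0.78, 0.435 and -0.223. The labels state no pairing, so the main fit has no block, but these values do not settle whether RED and GREEN are paired by code number. With a block by title number 2, 3 and 5 of the 7 passed in the 3 comparisons, as without it. In RED and GREEN alone 4 passed in GREEN versus RED without a block (1283 genes in all) and 3 with a block by code number (914 in all); there Sox9 had 1.56 (adjusted p = 0.00283) and Grhl2 3.35 (adjusted p = 0.0989, edgeR). Levels under 1 CPM, as of Ehf and Sox4 in CTL, rest on few counts.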
